A study of Homo sapiens with 6 samples.

Results

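NR5A1, the gene of the nuclear receptor SF-1, was examined together with 7 genes that act beside SF-1 in the adrenal cortex and gonad: its paralogue NR5A2 (LRH-1), NR0B1 (DAX-1), WT1, GATA4, GATA6, CITED2 and SOX9. All probe sets that the array annotation gives to these 8 genes were taken. They numbered 19 of the 54613 probe sets on the array and covered 7 of the 8 genes, with 1 for NR5A1, 4 for NR5A2, 2 for WT1, 5 for GATA4, 2 for GATA6, 3 for CITED2 and 2 for SOX9. The annotation used here listed 0 probe sets for NR0B1, which therefore has no value. None of the 19 listed a further gene.

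The cells were H295R/TR SF-1, a subclone of the human adrenocortical carcinoma line H295R in which doxycycline (Dox) induces SF-1, so that all results stand for 1 modified clone of 1 tumour. Total RNA was hybridised to 6 arrays after 72 h, 3 labelled as basal cultures without Dox and 3 labelled as cultures given Dox at 1 µg/mL. Both groups carry the inducible construct and were grown in the same medium, and the question was what a raised SF-1 dosage changes. Arrays are named here by label and order of deposition, so that Dox 2 is the second array labelled Dox, and these numbers pair nothing. Signals are on the log2 scale, where a difference of 1 is a 2-fold change.

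SF-1 is an orphan nuclear receptor that binds DNA as a monomer and drives genes of steroid synthesis, and the adrenal gland and gonads do not form without it. DAX-1 is a nuclear receptor without the usual DNA-binding domain that binds SF-1 and represses it. WT1 and CITED2 raise NR5A1 expression in the adrenal primordium, GATA4 and GATA6 are zinc finger factors of gonadal and adrenal somatic cells, and SOX9 acts with SF-1 in the Sertoli cell of the testis.

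Before the members are described, 4 arrays need a remark. The arrays labelled basal 1 and Dox 1, and those labelled basal 3 and Dox 2, formed 2 pairs of opposite label that were nearly identical: the SD of the difference over all probe sets was 0.134 and 0.149, with 0 probe sets beyond a 2-fold difference. The 6 pairs of the same label had SDs of 0.258 to 0.452, with 525 to 2197 probe sets over 2-fold. The titles of basal 1 and Dox 1 describe the treatment, and those of the other 4 arrays are short codes. This split, called label style, sets 1 of the nearly identical pairs apart. The labels do not show which array of each pair is out of place, so each is called here the library labelled as it is. Differences of the members are given for all 6 and for the 4 arrays left after basal 3 and Dox 1 are taken out. For the gene lists, counts are given for both, and medians and most differences for the 4 arrays only. Dox 3 and basal 2 shared a narrower spread of values (SD 2.37 and 2.36) than the other 4 arrays (2.43 to 2.44) and are called an array set. Of 11 adrenal cortex markers, 7 were above the array median on all 6 arrays and 1, INHA, was below it on all 6, and their summed signal was 13.6 to 14.0 in the basal and 13.6 to 13.9 in the Dox arrays. Of 14 markers of endothelial, stromal, blood and medullary cells, 7 were above and 6 below the median on all 6 arrays. Those above were COL1A1 (7.76 to 8.17), PECAM1 (6.01 to 6.36), PNMT (6.37 to 6.85), CHGA (6.11 to 6.34), SOX10, PDGFRB and HBB, and among those below were TH (3.64 to 3.73), CDH5 (3.62 to 3.80) and PTPRC (3.04 to 3.41). Their summed signal was 9.95 to 10.3 in the basal and 9.81 to 10.3 in the Dox arrays. In RNA from whole cultures, fewer cells of a type and less RNA per cell cannot be told apart.

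The signal of NR5A1 itself can check the labels only if its probe set reads the transcript that Dox induces, which the sources used here do not state. Probe set 210333_at read 5.84, 5.92 and 6.30 in basal 1, 2 and 3 and 5.55, 6.21 and 6.41 in Dox 1, 2 and 3. The labelled groups overlapped, with Dox 1 the lowest and Dox 3 the highest of all 6 arrays and basal 3 above Dox 2. The means were 6.02 ± 0.24 (SD, n = 3) in the basal and 6.06 ± 0.45 (SD, n = 3) in the Dox arrays. Their difference of 0.034 ± 0.244 (SE) did not exceed the spread between arrays (two-sided exact permutation p = 1, smallest possible 0.1), and its 95% interval ran from -0.54 to 0.61. The signal lay near the array median, and was at or above it on 5 of the 6 arrays. Thus the NR5A1 signal did not separate the libraries by their labels, and directions below rest on labels that it does not bear out. A probe set that reads only the cell's own transcript could not serve as this check.

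The wide range of NR5A1 lay partly inside a nearly identical pair. Dox 1 was 0.30 below basal 1, a distance reached by 4.06% of all probe sets between these 2 arrays, whereas basal 3 and Dox 2 were 0.09 apart. Over the 6 arrays NR5A1 spanned 0.86, a range that 12.5% of probe sets equalled or passed. In the 4 arrays the difference, Dox minus basal, was 0.43 ± 0.14 (SE, array set as a block, 1 residual degree of freedom), and it was 0.37 between Dox 2 and basal 1 and 0.49 between Dox 3 and basal 2. It did not pass the threshold of 0.05 (limma, adjusted p = 0.132, and exact permutation p = 0.333, the smallest that 2 against 2 arrays allow). Taking out basal 3, the highest basal array, and Dox 1, the lowest Dox array, raises this difference by construction. When basal 1 and Dox 2 were taken out instead, it was -0.13. That choice sets Dox 1 against basal 3, which nearly repeats basal 1 minus Dox 2. Differences of like size and sign in both array sets then cancel by construction. Small values from that choice, here and below, are therefore no check on a difference. Whether this probe set reads the induced transcript, the cell's own NR5A1 transcript or both is not stated in the sources used here.

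**Figure D1:**
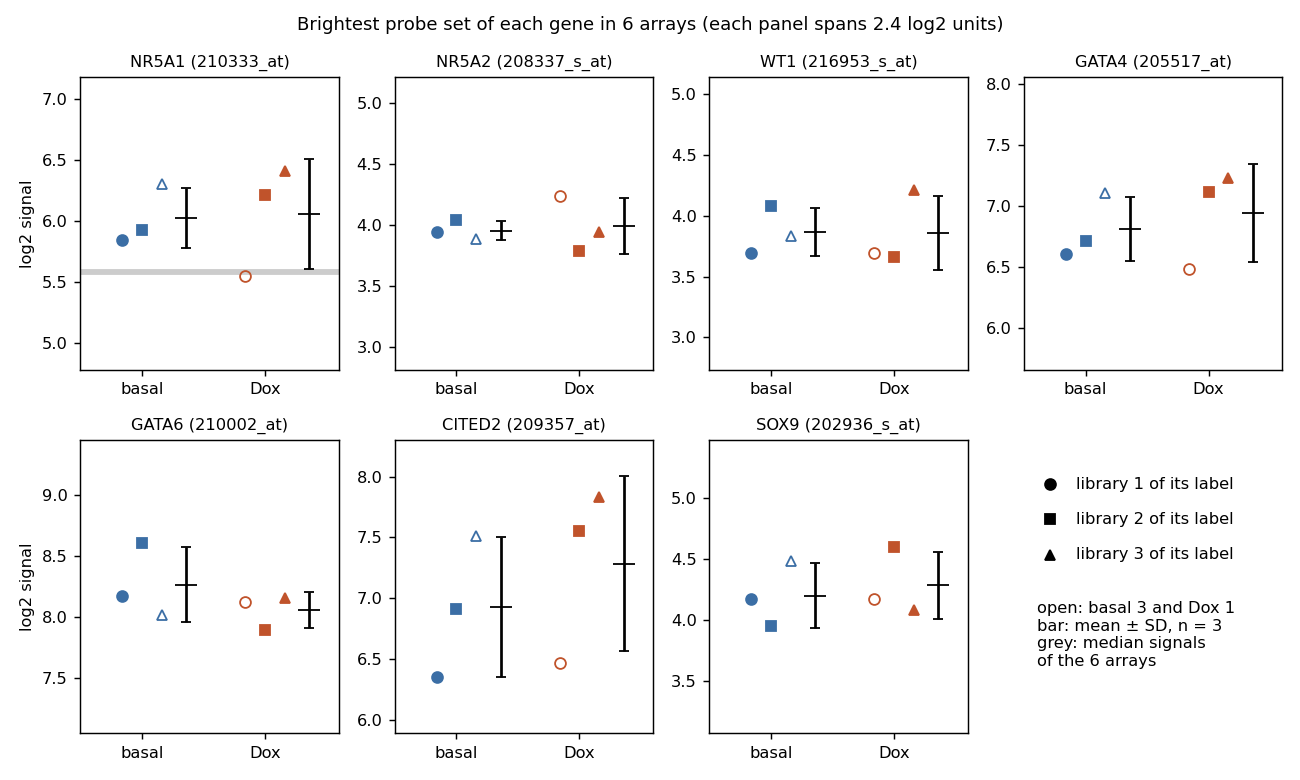
Log2 signal (vertical axes, each spanning 2.4 units) of 1 probe set for each of the 7 genes in the 3 basal and 3 Dox arrays. Points are single arrays, open points are basal 3 and Dox 1, bars are the mean ± SD of the labelled group (n = 3), and the grey band marks the array medians. GATA4 and CITED2 each have open points that stand with the filled points of the other label. For NR5A1 the open basal 3 point does so. For NR5A1 and GATA4 the open Dox 1 point lies below all others.

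The genes were then set beside the sequence ahead of their start sites. Among them NR5A1 encodes SF-1, and CITED2 had the largest difference among the 19 probe sets. RefSeq (GRCh38.p14) gave 12 promoter windows for 6 of the 8 genes, none of them for GATA4 or SOX9, and the 250 bases before each start were searched on both strands for the E-box CACGTG, for CCAAT, for the SF-1 element AAGGTCA and for GATA sites, taken as GATAA or GATAG after an A or a T. The 2 windows that hold CACGTG are shown 5' to 3' on the strand of the gene, with every motif match in capitals. They lie on the minus strand at chr9:124507400-124507649 (NR5A1) and chr6:139374649-139374898 (CITED2, the furthest upstream of its 3 windows).
NR5A1: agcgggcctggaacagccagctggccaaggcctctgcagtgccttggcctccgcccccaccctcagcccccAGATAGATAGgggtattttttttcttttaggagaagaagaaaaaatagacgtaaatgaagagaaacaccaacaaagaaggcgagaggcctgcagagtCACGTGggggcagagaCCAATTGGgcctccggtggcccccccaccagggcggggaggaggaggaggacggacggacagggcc
CITED2: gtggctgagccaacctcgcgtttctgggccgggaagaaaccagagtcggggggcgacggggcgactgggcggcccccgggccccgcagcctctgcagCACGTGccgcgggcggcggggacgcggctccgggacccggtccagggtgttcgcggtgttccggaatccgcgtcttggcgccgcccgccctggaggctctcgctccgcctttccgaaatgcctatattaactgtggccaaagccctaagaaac
In NR5A1 the E-box CACGTG, which USF factors are known to bind, begins 82 bases before the start. It is followed by CCAATTGG, which holds CCAAT once on each strand, and further upstream 2 matches to a GATA site overlap. In CITED2 the E-box begins 153 bases before the start. CACGTG was in 2 of the 12 windows and in 6.34% of 35116 RefSeq windows of the same length, CCAAT was in 2 and 32.0%, and a GATA site was in 3 and 22.3%. The SF-1 element AAGGTCA was in 0 of the 12 windows and in 3.44% of all. These are matches of letters only, and nothing on binding was measured here. The NR5A1 window is that of the cell's own gene, not of the inducible construct.

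CITED2, a coactivator-binding protein that works with WT1 on NR5A1, had the largest differences of the 7 genes. Its probe set 209357_at read 6.36, 6.92 and 7.51 in basal 1, 2 and 3 and 6.47, 7.55 and 7.83 in Dox 1, 2 and 3. Basal 3 stood with Dox 2 and Dox 3, and Dox 1 stood with basal 1, so the labelled groups overlapped. Over all 6 arrays the difference was 0.36 ± 0.42 (SE, adjusted p = 1), and it ran from 0.072 without basal 1 to 0.76 without Dox 1. The range of 1.48 over the 6 arrays was equalled or passed by 2.29% of all probe sets.

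In the 4 arrays, 209357_at was higher with Dox by 1.06 ± 0.14 (SE), or 2.08-fold (adjusted p = 2.66e-04), and both comparisons within an array set went this way, by 1.19 and 0.92. The second probe set, 207980_s_at, lay below the array median on every array, at 4.44, 4.54 and 5.28 in basal 1, 2 and 3 and 4.73, 5.15 and 5.50 in Dox 1, 2 and 3. It was higher by 0.37 ± 0.27 (SE) over all 6 arrays and by 0.84 ± 0.14 (SE), or 1.79-fold (adjusted p = 0.00287), in the 4 arrays. Dox 1 was 0.29 above basal 1 here, a distance reached by 4.35% of all probe sets between these arrays. For this probe set and for 209357_at, basal 3 was the highest basal and Dox 1 the lowest Dox array. Leaving them out raises both differences by construction. The third, 227287_at, read 6.11, 5.80 and 5.88 in the basal and 6.15, 6.19 and 5.76 in the Dox arrays. Its difference was 0.10 ± 0.16 (SE) over all 6 arrays and 0.02 in the 4 arrays (95% interval -0.28 to 0.32, adjusted p = 0.978), so the 3 probe sets of CITED2 did not give 1 answer. Both calls were lost without the array set as a block (adjusted p = 1 for 209357_at and 0.866 for 207980_s_at), and when basal 1 and Dox 2 were left out in place of basal 3 and Dox 1 the differences were -0.061 for 209357_at and 0.20 for 207980_s_at (adjusted p = 1 for both). That last choice makes differences cancel by construction, as set out for NR5A1. CITED2 is among the genes that the study names as changed on these arrays, so its direction here is not independent evidence.

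**Figure D2:**
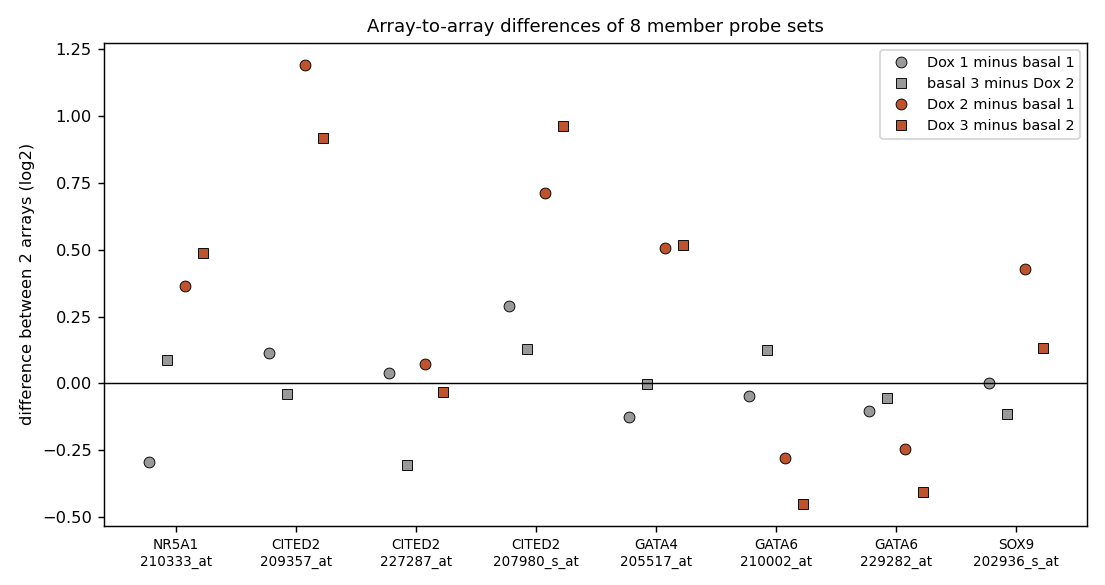
Difference in log2 signal between 2 arrays (vertical axis) for 8 probe sets of 5 genes. Grey points are the nearly identical pairs of opposite label (Dox 1 minus basal 1, basal 3 minus Dox 2) and coloured points are Dox minus basal within an array set. Coloured points reach 1.19 for CITED2 209357_at, where the grey points stay between -0.04 and 0.11. Grey points reach 0.29 for CITED2 207980_s_at, -0.31 for CITED2 227287_at and -0.30 for NR5A1.

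The brightest probe sets of GATA4 and GATA6 gave differences of opposite sign. For GATA4, probe set 205517_at read 6.61, 6.72 and 7.11 in basal 1, 2 and 3 and 6.49, 7.12 and 7.24 in Dox 1, 2 and 3. As with CITED2, basal 3 lay beside Dox 2 and Dox 1 lay beside basal 1. The difference over 6 arrays was 0.13 ± 0.24 (SE, adjusted p = 1). In the 4 arrays it was 0.51 ± 0.13 (SE), or 1.43-fold, with values of 0.51 and 0.52 within the array sets. That passed the threshold narrowly (adjusted p = 0.0474). Basal 3 was the highest basal and Dox 1 the lowest Dox array here too, so leaving them out raises the difference, and without basal 1 and Dox 2 instead it was -0.056 (adjusted p = 1). The call was lost without the block (adjusted p = 1) and also when the variances were moderated without a trend (adjusted p = 0.0532).

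The other 4 probe sets of GATA4 did not separate the 4 arrays in this way. Probe set 1553131_a_at read 6.36, 6.42 and 6.22 in basal 1, 2 and 3 and 6.23, 6.30 and 6.43 in Dox 1, 2 and 3. Probe set 230855_at read 6.12, 6.20 and 6.31 in the basal and 6.19, 6.27 and 6.19 in the Dox arrays. Both were above the array median on all 6 arrays, and their labelled groups overlapped. The 4 probe sets lay between 4.52 and 6.43 on all arrays. Their differences ran from -0.07 to 0.10 in all 6 arrays and from -0.12 to 0.08 in the 4 arrays (adjusted p from 0.826 to 0.976 in the latter). Of the 5 probe sets for this gene, 1 was therefore called.

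GATA6, which is expressed in the adrenal cortex, read 8.17, 8.61 and 8.01 in basal 1, 2 and 3 and 8.12, 7.89 and 8.16 in Dox 1, 2 and 3 (210002_at). Basal 2 was the highest and Dox 2 the lowest, and the labelled groups overlapped. The difference was -0.21 ± 0.19 (SE, adjusted p = 1) in all 6 arrays and -0.36 ± 0.13 (SE, adjusted p = 0.155) in the 4 arrays, where it was -0.28 and -0.45 within the array sets. Without basal 2, and with no block, the difference was -0.034 over the other arrays of the 6 and -0.14 over those of the 4. These values also hold the difference between array sets. The second probe set, 229282_at, lay near the array median, at 5.69, 5.61 and 5.39 in basal 1, 2 and 3 and 5.58, 5.44 and 5.20 in Dox 1, 2 and 3. It gave -0.15 ± 0.14 (SE) in all 6 arrays and -0.33 ± 0.14 (SE, adjusted p = 0.315) in the 4 arrays. Both probe sets of GATA6 had a negative sign in both comparisons, and neither passed the test.

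The remaining 3 genes were dim. All 8 probe sets of NR5A2, WT1 and SOX9 were below the array median on each of the 6 arrays, with signals from 2.31 to 4.60. Brightness also depends on the probes, so the genes are not ranked by it. For NR5A2, which binds the same DNA element as SF-1, probe set 208337_s_at read 3.95, 4.04 and 3.88 in the basal and 4.24, 3.79 and 3.95 in the Dox arrays. For WT1, a zinc finger factor of the urogenital ridge, 216953_s_at read 3.69, 4.08 and 3.83 in the basal and 3.70, 3.66 and 4.21 in the Dox arrays. For SOX9, 202936_s_at read 4.17, 3.95 and 4.48 in the basal and 4.17, 4.60 and 4.08 in the Dox arrays. In each case basal and Dox values interleaved. The second probe set of WT1, 206067_s_at, stayed within 3.27 to 3.35 on the 6 arrays, a range that 99.6% of all probe sets equalled or passed. Over the 8 probe sets the differences ran from -0.06 to 0.10 in all 6 arrays and from -0.13 to 0.28 in the 4 arrays, with a lowest adjusted p of 0.422 in the latter. For SOX9 202936_s_at, which had the 0.28, the 95% interval reached from -0.02 to 0.58. Within the array sets its difference was 0.43 (Dox 2 minus basal 1) and 0.13 (Dox 3 minus basal 2). Fits with 1 array left out had no block and gave 0.022 without Dox 2 and 0.54 without Dox 3. Those values also hold the difference between array sets.

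Across all 19 probe sets, 0 were called in the 6 arrays, where 0% of the 54613 probe sets were called as well. At an unadjusted p under 0.05 there were 0 members, against 0.683% of all probe sets. The labelled groups did not overlap for 0 of the 19 members, against 3.81% of all. Their median difference was 0.03, beside -0.0015 over all probe sets. In the 4 arrays, 3 of the 19 were called, all higher with Dox (CITED2 209357_at and 207980_s_at and GATA4 205517_at), where 4.15% of all probe sets were called, 2.07% higher and 2.09% lower. The groups did not overlap for 6 of the 19, 4 higher and 2 lower, against 24.3% of all. At an unadjusted p under 0.05 there were 6 members, against 13.8% of all. At 2-fold or more with an unadjusted p under 0.05, the thresholds of the study, 1 member passed (CITED2 209357_at), against 0.879% of all. The median difference of the 19 was 0.02, beside -0.0033 over all. The 2 comparisons share 4 arrays, and the arrays left out were chosen with results known. Without the block, which leaves the differences as they are, 0 members and 0 probe sets of the table were called. When basal 1 and Dox 2 were left out instead, with the same block, 0 members and 0 probe sets were called as well, with 518 probe sets at an unadjusted p under 0.05. Like differences in both array sets cancel there by construction, so these counts are no check on the calls.

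**Figure D3:**
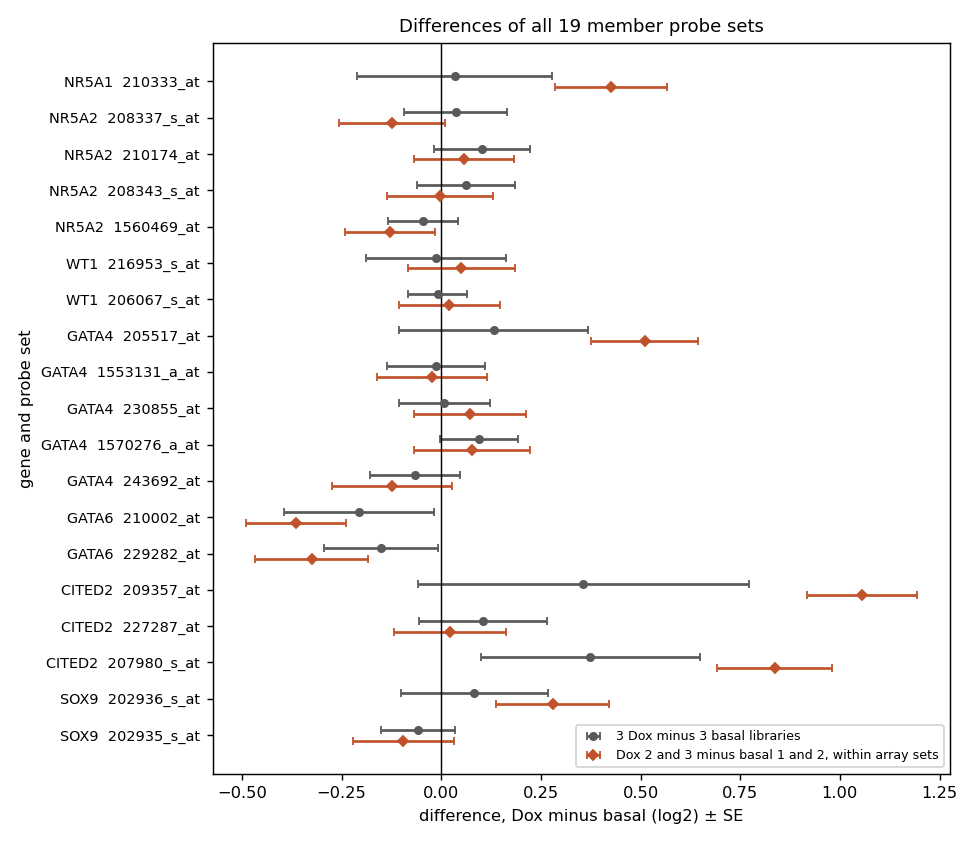
Difference, Dox minus basal (log2, horizontal axis), with its SE for each of the 19 probe sets. Grey circles are all 6 arrays (n = 3 per label) and coloured diamonds are the 4 arrays fitted within array sets (n = 2 per label). Members called in the 4 arrays were CITED2 209357_at and 207980_s_at and GATA4 205517_at.

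The genes around SF-1 were taken from lists, 1 probe set per gene. In the 6 arrays 0 genes were called in any of the lists, as in the table as a whole (0%). In the 4 arrays, 3.16% of 19775 genes were called higher and 3.27% lower. Of 21 known SF-1 target genes, 2 were higher and 4 lower, with a median of -0.09 beside -0.0062 for all genes. FATE1, a cancer/testis antigen gene, read 7.24, 8.32 and 9.89 in basal 1, 2 and 3 and 7.28, 9.92 and 10.38 in Dox 1, 2 and 3, and was higher by 2.37 ± 0.14 (SE, adjusted p = 2.44e-07). CCN3, which encodes a secreted matricellular protein, read 11.71, 12.29 and 9.85 in the basal and 11.59, 9.86 and 10.04 in the Dox arrays, and was lower, at -2.05 ± 0.11 (SE, adjusted p = 6.06e-08). In both genes basal 3 stood with Dox 2 and Dox 1 with basal 1, as for CITED2. The steroid enzyme genes CYP19A1 (aromatase) and HSD3B2 were lower, at -1.52 ± 0.15 and -1.40 ± 0.18 (SE). SULT2A1, the sulfotransferase of DHEA, was higher by 0.68, and STAR, which brings cholesterol into mitochondria, was lower, at -0.54. Over all 6 arrays FATE1 differed by 0.71 ± 0.93 and CCN3 by -0.79 ± 0.70 (SE). CYP19A1 was at -0.50 ± 0.65 and HSD3B2 at -0.48 ± 0.66 (SE) there, and SULT2A1 and STAR were at 0.27 and -0.17. Leaving out basal 3 and Dox 1 widens all of these differences by construction. When basal 1 and Dox 2 were left out instead, FATE1 was at -0.27 and CCN3 at -0.25 (adjusted p = 1 for both). The sign of FATE1 turned there and that of CCN3 did not. Like differences in both array sets cancel in that choice by construction, so these values test neither difference. Several of these genes are named by the study from these arrays, so the counts are not independent evidence of direction.

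Among genes that act on or upstream of SF-1, calls fell in both directions. Of 23 cofactors and modifiers of SF-1 and DAX-1, 1 was higher, the SUMO ligase gene PIAS4 at 0.54 ± 0.13 (SE, adjusted p = 0.0254), and 1 was lower, SREBF1, which encodes a sterol-regulated factor, at -0.75 ± 0.12 (SE, adjusted p = 0.00161). Of 29 genes of adrenogonadal development and NR5A1 regulation, the transcription factor genes SOX8 and LHX2 were higher by 0.72 and 0.67, and the ligand gene WNT4 was lower, at -0.55. The medians of these 2 lists were 0.01 and -0.04. Of 25 paralogues of the members, 2 were higher, SOX8 and GATA3, and 0 were lower, with a median of 0.06. GATA3, a GATA factor known for lymphoid and sympathoadrenal development, read 7.47, 8.70 and 9.23 in basal 1, 2 and 3 and 7.60, 9.08 and 9.997 in Dox 1, 2 and 3, a difference of 1.45 ± 0.12 in the 4 arrays (SE, adjusted p = 5.99e-06). Over all 6 arrays the GATA3 difference was 0.42 ± 0.66 (SE), and leaving out basal 3 and Dox 1 raises it by construction. Of the adrenal cortex markers, 1 was higher (SULT2A1) and 2 lower (HSD3B2 and STAR). Of the markers of other cells, 0 were higher and 1 was lower, COL3A1 at -1.09 ± 0.21 (SE, adjusted p = 0.00568), which read 8.75, 5.98 and 7.09 in the basal and 8.74, 7.08 and 5.47 in the Dox arrays. Its part in the differences of the members was not tested. All calls in these lists were lost without the block, which leaves the differences as they are. They were also lost with the block when basal 1 and Dox 2 were left out in place of basal 3 and Dox 1, where GATA3 was at -0.17, SOX8 at -0.018 and COL3A1 at 0.57 (adjusted p = 1 for each). Again, like differences in both array sets cancel in that choice by construction.

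Because NR5A1 gave 1 value per array, the genes whose profile lay nearest to it were looked up among 13154 genes with a mean signal at or above the median of the table, after each gene was centred on its own mean. The measure was the root mean square distance over the 6 arrays, beside a root mean square of 0.296 for NR5A1 around its own mean. The nearest were SOX6 at 0.054, MYH9 at 0.058, TESC at 0.066, UNC5CL at 0.071 and MGAT4B at 0.083. SOX6 encodes a transcription factor of the SOX family and MYH9 a non-muscle myosin heavy chain. SOX6 read 6.92, 7.04 and 7.28 in basal 1, 2 and 3 and 6.71, 7.28 and 7.52 in Dox 1, 2 and 3, with its lowest value in Dox 1 and its highest in Dox 3, as for NR5A1. These genes were picked for their likeness over 6 arrays, so their values are a description without a test.

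**Figure D4:**
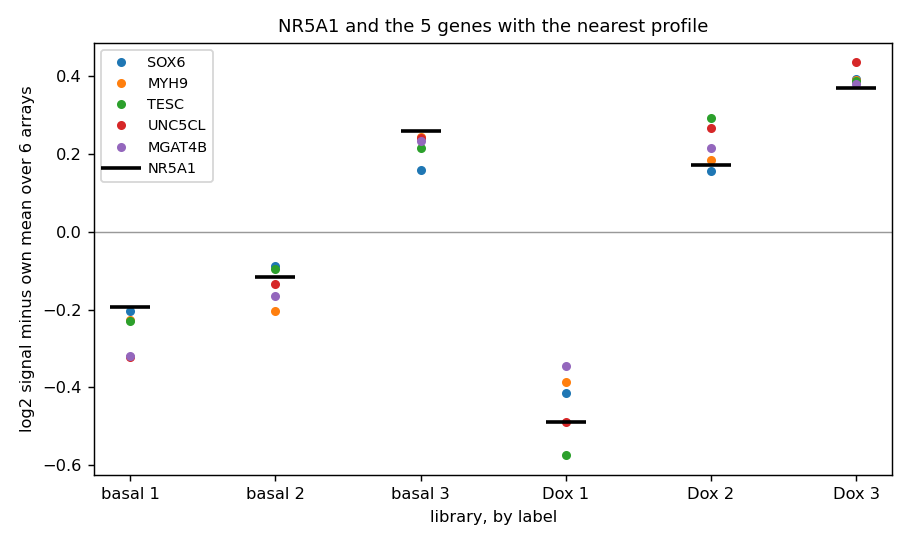
Log2 signal minus the gene's own mean over 6 arrays (vertical axis) for NR5A1 (black bars) and the 5 genes nearest to it (points) in each library. All 6 genes are lowest in Dox 1 and highest in Dox 3.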

How the data were processed

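Total RNA of 6 samples, 3 labelled basal and 3 labelled Dox, was measured on Affymetrix HG-U133 Plus 2.0 arrays. The deposited table holds 1 log2 signal per probe set and array, made by the authors with GCRMA per the submitters' processing notes, which give no version. Whether the 6 arrays were normalized in 1 run is not given in the sources used here. Array medians lay between 5.56 and 5.60, so the log2 values were used without further scaling or filter, and precision is bounded by how many arrays there are.

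Probe sets were assigned to genes by the platform annotation, in which 41091 of 54613 have 1 symbol, 1801 several and 11721 none. Groups were compared in limma 3.58.1 under R 4.3.3 (lmFit, eBayes with a mean-variance trend) over all 54613 probe sets, two-sided, with Benjamini-Hochberg adjustment and a threshold of 0.05, after the scripts were tested on simulated data. In the lists 1 probe set stood for each gene, the one brightest on average over the 6 arrays. The study calls the arrays of a condition biological replicates, but the labels name no separate cultures, so p-values speak only of these arrays. In the 4 arrays the fit leaves 1 residual degree of freedom per probe set, and its variance is largely borrowed from the other probe sets. Small p-values there do not measure how far that gene itself varies between arrays. The named genes are all members, up to 4 genes per list past the threshold in the 4 arrays by smallest adjusted p, and the 5 nearest to NR5A1. STAR and SULT2A1 come under this rule as adrenal cortex markers. The members, lists, arrays left out and block were chosen with earlier results of these data known. Alternatives were other scalings, no trend, a filter on low signals, gene-level values, the study's thresholds, other blocks and arrays left out.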

Additional observations from a re-analysis of the deposited data

How the results depend on the processing

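The difference of NR5A1 over 6 arrays, 0.034, ran from -0.14 to 0.29 when 1 array at a time was left out. Without basal 1 and Dox 2, and with the array set as a block, it was -0.13, and those of SOX9 202936_s_at, GATA4 205517_at and CITED2 209357_at were -0.089, -0.056 and -0.061. Like differences in both array sets cancel in that choice by construction. Members whose groups did not overlap numbered 3 of 19 there, and 0 to 3 with 1 array at a time left out of the 6. The share over all probe sets was not taken for these settings, and was 24.3% in the 4 arrays without basal 3 and Dox 1. These counts are therefore not read as a result about the members. Leaving out 1 array at a time gave differences of -0.074 to 0.22 for SOX9 202936_s_at, -0.013 to 0.36 for GATA4 205517_at, -0.087 to 0.14 for NR5A2 208337_s_at, -0.19 to 0.093 for WT1 216953_s_at, 0.072 to 0.76 for CITED2 209357_at, 0.19 to 0.64 for CITED2 207980_s_at and -0.33 to -0.034 for GATA6 210002_at. Among the 10 member probe sets whose differences were recomputed, median centring, quantile normalization and variances without a trend turned no sign in either comparison. The other 9 were recomputed only within the counts.

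In the 4 arrays, the 3 members called became 0 without the block and 1 at the study's thresholds. Label style as the block marks only basal 1 among these arrays, so that fit gives the same differences as leaving basal 1 out. It and the fits with 1 array left out keep only 1 array under a label, so their calls are not counted here. Over all probe sets 2269 were called with the array set block, 0 without it (1580 at an unadjusted p under 0.05) and 0 in the 6 arrays (373 at an unadjusted p under 0.05). Without basal 1 and Dox 2 in place of basal 3 and Dox 1, 0 were called (518 at an unadjusted p under 0.05), but like differences cancel there by construction. NR5A1, at 0.43, passed the threshold when dim probe sets were filtered (adjusted p = 0.0479) and when genes were averaged over probe sets (adjusted p = 0.0307), but not when 1 probe set per gene was fitted (adjusted p = 0.0808). With 1 array left out and no block, WT1 216953_s_at was -0.22 to 0.32, CITED2 227287_at was -0.19 to 0.23, SOX9 202936_s_at was 0.022 to 0.54 and GATA6 210002_at was -0.58 to -0.14. These fits set arrays of different array sets against each other, so their spread is not that of single arrays alone.

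Every list had 0 genes called in the 4 arrays without the block. The same held with the block when basal 1 and Dox 2 were left out in place of basal 3 and Dox 1, where like differences cancel by construction. SF-1 target genes (6 called) became 10 and adrenal cortex markers (3 called) became 7 with dim probe sets filtered, and cofactors (2 called) became 4 when 1 probe set per gene was fitted. Calls also rose over the whole table. They were 2763 of 27274 probe sets with the filter, beside 2269 of 54613 without it. With 1 probe set per gene fitted they were 1383 of 19775 genes, beside 1271 in the main fit. How many list genes the filter kept was not counted. At the study's thresholds cofactors and development genes (3 called) had 0, and paralogues (2 called) and adrenal cortex markers had 1 each. The cause of these changes was not tested. The labels give the groups no shared replicate numbers, so no fit with such a number as a block was made, and the array set, found from the spread of values, was the block that set 1 Dox against 1 basal array in each set of the 4.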
